A study of Mus musculus with 2 samples.

Results

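The receptors for glutamate, GABA and glycine were followed in single nuclei of whole fetal mouse brain. The members were chosen by gene symbol alone, as every feature named for an AMPA, kainate, delta, NMDA or metabotropic glutamate receptor, a GABA-A or GABA-B receptor or a glycine receptor. This gave 52 of the 55416 features in the deposited tables: 4 AMPA, 5 kainate, 2 delta, 7 NMDA, 8 metabotropic glutamate, 16 GABA-A, 3 GABA-A rho, 2 GABA-B and 5 glycine receptor genes. The study holds 2 libraries, 1 from wildtype fetal brain and 1 from fetal brain in which Cav1 was knocked out. Cav1 encodes caveolin 1, a protein of small pits in the plasma membrane, and the title of the study places it in metabolic programming of the fetal brain. The labels give neither strain, day of gestation, sex, the number of animals pooled nor the form of the Cav1 allele.

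Glutamate is the main excitatory transmitter of the brain. It opens the ionotropic AMPA, kainate and NMDA receptors, which are cation channels built of several subunits, and it acts through G proteins on the metabotropic receptors. GABA and glycine open chloride channels of the GABA-A and glycine receptor families, and GABA also acts through G proteins on the GABA-B receptor. In immature neurons chloride tends to flow out through these channels, since the importer NKCC1 (Slc12a2) is made before the exporter KCC2 (Slc12a5). Several subunits are known to replace one another as the brain matures, among them GluN2B by GluN2A and the glycine receptor subunit alpha 2 by alpha 1.

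Values given in pairs stand in the order wildtype-labelled, knockout-labelled. After filtering, 6686 and 6680 nuclei were kept, with 17205381 and 19878903 unique molecular identifiers (UMIs, one for each captured RNA), and the median nucleus held 2134 and 2366 UMIs. The unit of a level is CPM, in which a gene's UMIs are divided by all UMIs of the same nuclei and scaled to one common total. With 1 library for each genotype there was no test between genotypes, and every interval is an exact 95% interval for counting error only. It says nothing of the spread between animals. Cav1 itself did not separate the libraries over all nuclei, at 71 and 80 UMIs, whereas in endothelial-like nuclei it had 17 UMIs in 48 nuclei and 1 UMI in 64 nuclei. The 2 libraries shared 43 barcodes, of which 10 were kept in both.

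Nuclei were named from marker genes after clustering without the receptor genes, so each name is read as "-like" and is not the authors' annotation. Progenitors (radial glia or dividing) made up 741 and 555 nuclei, intermediate progenitors 236 and 152, cortical excitatory neurons 1699 and 1213, and forebrain inhibitory neurons 918 and 753. Other excitatory neurons made up 715 and 716 nuclei and other inhibitory neurons 232 and 151. One cluster with transcripts of the glutamate transporter gene Slc17a6 in 23.6% of nuclei and of Gad1, Gad2 or Slc32a1 in 61.6%, called mixed-transmitter neurons, held 610 nuclei (9.12%) and 1095 nuclei (16.4%). Cluster 13, led by Ikzf1, Rarb and Isl1, was named from general neuron markers only, as too few markers of any neuron type passed. Transcripts of Gad1, Gad2 or Slc32a1 were nevertheless seen in 81.3% of its nuclei, and of Slc17a6 in 4.15%. At a coarser clustering, a larger cluster also led by Ikzf1 and Rarb was named forebrain inhibitory neurons. Unnamed clusters held 976 nuclei (14.6%) and 1457 nuclei (21.8%). The difference in the share of mixed-transmitter and unnamed nuclei stands beside every ratio over all nuclei given later. Free RNA was present: Ttr, at 2152 and 2116 CPM in choroid plexus epithelium, was at 137 to 476 CPM and 139 to 506 CPM in the other 14 groups of nuclei. The cortical marker Neurod6, at 306 and 348 CPM in cortical excitatory neurons, was at 74.3 to 295 CPM and 37.7 to 172 CPM elsewhere. The top of that range was in intermediate progenitors, which had 2 cortical excitatory markers raised. Their own Neurod6 transcripts were not told apart from free RNA. The medians of Neurod6 over the 14 groups outside the cortical class were 109 and 66.9 CPM, so they differed between the libraries.

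The 52 genes together held 136266 UMIs (7920 CPM) and 170966 UMIs (8600 CPM). AMPA receptor genes held the largest share of these UMIs, 27.9% and 25.2%, at 2208 and 2165 CPM, followed by kainate receptor genes with 22.0% and 20.0%, at 1742 and 1716 CPM. GABA-A receptor genes held 14.1% and 15.2%, metabotropic glutamate receptor genes 11.7% and 13.2% and NMDA receptor genes 11.4% and 11.3%. GABA-B receptor genes reached 208 and 230 CPM, glycine receptor genes 154 and 163 CPM, and the GABA-A rho genes, known from the retina, 2.09 and 1.51 CPM. These shares are of UMIs and are not corrected for gene length, so they do not rank the families by number of transcripts.

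Summed receptor levels were lowest in intermediate progenitors (2800 and 3119 CPM) and progenitors (3924 and 3618 CPM) among the progenitor and neuron classes. Cortical excitatory neurons stood at 7328 and 7555 CPM and forebrain inhibitory neurons at 7718 and 7199 CPM. Higher sums were found in other inhibitory neurons (10215 and 9339 CPM), cluster 13 (10750 and 10775 CPM), other excitatory neurons (11201 and 11095 CPM) and mixed-transmitter neurons (13186 and 12719 CPM). The order of these 4 classes was the same in both libraries, with mixed-transmitter neurons above other excitatory neurons, and both far above the 2 forebrain classes. The makeup differed as well: kainate receptor genes gave 45.3% and 42.1% of receptor UMIs in progenitors and 54.2% and 54.2% in intermediate progenitors, whereas AMPA receptor genes gave 41.2% and 41.0% in cortical excitatory neurons. Kainate receptor genes were also the largest family in cluster 13 (30.5% and 32.2%), other inhibitory neurons (27.1% and 26.4%) and choroid plexus epithelium (26.9% and 27.5%).

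**Figure D1:**
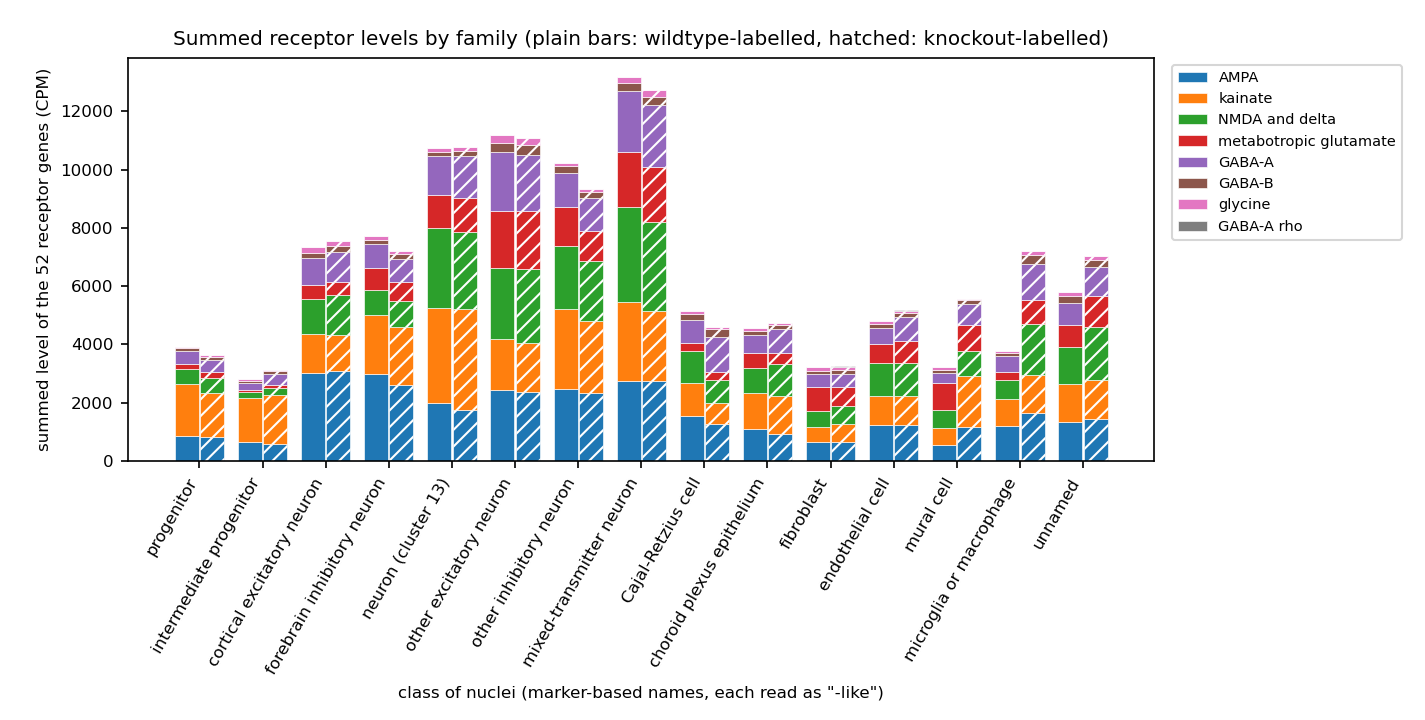
Summed level of the 52 receptor genes in CPM (vertical axis, from 0) in each class of nuclei, stacked by receptor family (NMDA and delta receptor genes together), with plain bars for the wildtype-labelled and hatched bars for the knockout-labelled library. Mixed-transmitter neurons have the tallest bars, 13186 and 12719 CPM, and the kainate part is the largest in progenitors and intermediate progenitors.

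The number of different receptor genes per nucleus was counted after each nucleus was thinned to 1000 UMIs, which left out shallower nuclei. The median nucleus showed 2 and 2 receptor genes in progenitors, 3 and 3 in cortical excitatory neurons, 4 and 4 in forebrain inhibitory neurons, 7 and 7 in other excitatory neurons and 8 and 7 in mixed-transmitter neurons. Without thinning these medians were 4 and 4, 5 and 6, 5 and 5, 13 and 13, and 14 and 15. Thinning left out between 5 and 92 nuclei of these classes in the wildtype-labelled and between 8 and 66 in the knockout-labelled library. Fibroblast-like nuclei, which are not expected to carry synaptic receptors, showed a median of 1 and 1, with summed receptor levels of 3230 and 3239 CPM. Doublet scores were among the highest 8% of their library in 21.6% of fibroblast-like and 24.1% of endothelial-like nuclei. The part of free RNA and of doublets in the receptor UMIs of these classes was not tested.

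Of the 52 genes, 41 had at least 100 UMIs over both libraries and 11 had fewer. The 11 were Grm2 (35 and 30 UMIs), Gabrq (9 and 45), Gabrr2 (28 and 21), Gabre (21 and 15), Grin2c (14 and 20), Gabrd (12 and 13), Gabrr1 (4 and 6), Gabrr3 (4 and 3), Gabra6 (2 and 3), Gabrp (1 and 3) and Grm6 with none, which allows up to 3 UMIs in each library. Several of these are known from other tissues or from the mature brain: Gabra6 and Gabrd mark cerebellar granule cells, Grin2c is a subunit of the mature cerebellum, and Grm6 serves bipolar cells of the retina. Just above the limit was Grin3b, with 48 and 66 UMIs. Nuclear RNA holds introns, so long genes can yield more UMIs: the 41 had a median gene length of 224 kb and 30 of them (73.2%) exceeded 100 kb, against a median of 25.9 kb and 16.3% for all 15454 genes with as many UMIs and a known length. The 11 scarce genes had a median length of 18.5 kb and a longest of 57.2 kb. Levels of single genes are therefore compared with each other per 100 kb of gene, and levels of 1 gene or family between nuclei in CPM. Division by length takes UMIs to rise in proportion to gene length, which was not tested, and it raises short genes. UMI counts and family shares set side by side are not corrected for length.

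Per length, Gria2 stood far above every other member, at 1067 and 1004 CPM per 100 kb, followed by Gabbr1 at 369 and 412. Gria2 encodes the AMPA receptor subunit that keeps calcium out of the edited channel, and Gabbr1 the GABA-binding subunit of the GABA-B receptor. Next came Grik5 (195 and 200), Grik2 (165 and 157), Grin2b (156 and 162) and Grin1 (137 and 163 CPM per 100 kb). Grik2 and Grik5 encode kainate receptor subunits, Grin1 the subunit shared by all NMDA receptors and Grin2b the GluN2 subunit of the immature forebrain. Grik5 came after Gabbr1 in both libraries, and the order of the other 3 differed between them. By UMIs the leading genes were Gria2 (22359 and 24301), Grik2 (19713 and 21702) and Grin2b (12360 and 14826).

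The upstream sequences of 5 members are printed to set the genes with the most UMIs beside a neighbouring pair described later and a gene with almost none; they were chosen after the values were seen. They are the 250 bases before the annotated start, 5′ to 3′ on the strand of the gene, from the RefSeq promoter table of build GRCm38.p6, which held 36 of the 52 members. Capitals mark each CG, which reads the same on both strands. The windows are chr3:80802836-80803085 (minus strand) for Gria2, chr10:49788755-49789004 (minus) for Grik2, chr5:71658309-71658558 (minus) for Gabra4, chr5:71657671-71657920 (plus) for Gabrb1 and chr11:42321073-42321322 (minus) for Gabra6.
Gria2: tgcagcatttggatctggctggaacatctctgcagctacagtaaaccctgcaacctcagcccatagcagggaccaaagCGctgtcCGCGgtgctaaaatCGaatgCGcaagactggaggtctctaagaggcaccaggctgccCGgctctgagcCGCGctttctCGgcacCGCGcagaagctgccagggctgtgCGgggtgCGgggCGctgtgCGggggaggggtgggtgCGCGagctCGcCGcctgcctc
Grik2: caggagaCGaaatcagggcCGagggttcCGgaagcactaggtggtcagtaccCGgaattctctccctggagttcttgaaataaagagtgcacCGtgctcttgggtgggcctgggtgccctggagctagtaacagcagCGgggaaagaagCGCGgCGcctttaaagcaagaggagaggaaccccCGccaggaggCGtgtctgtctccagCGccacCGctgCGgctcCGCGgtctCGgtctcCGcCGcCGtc
Gabra4: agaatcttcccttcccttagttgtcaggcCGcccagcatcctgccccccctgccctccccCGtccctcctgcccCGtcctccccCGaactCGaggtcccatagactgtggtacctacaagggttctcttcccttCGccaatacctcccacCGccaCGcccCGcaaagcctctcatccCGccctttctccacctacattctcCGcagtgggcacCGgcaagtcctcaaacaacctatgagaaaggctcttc
Gabrb1: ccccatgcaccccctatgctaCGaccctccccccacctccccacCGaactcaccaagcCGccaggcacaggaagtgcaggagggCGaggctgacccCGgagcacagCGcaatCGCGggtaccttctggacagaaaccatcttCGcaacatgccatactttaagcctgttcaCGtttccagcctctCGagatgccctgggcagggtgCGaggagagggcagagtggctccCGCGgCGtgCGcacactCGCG
Gabra6: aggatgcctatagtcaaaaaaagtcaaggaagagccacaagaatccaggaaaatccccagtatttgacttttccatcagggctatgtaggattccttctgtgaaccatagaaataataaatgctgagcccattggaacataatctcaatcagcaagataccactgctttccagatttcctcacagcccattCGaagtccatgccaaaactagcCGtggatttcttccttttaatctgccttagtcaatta
CG occurred 19 times in the Gria2 window, 20 times for Grik2, 12 times for Gabra4, 18 times for Gabrb1 and 2 times for Gabra6. Across all 27025 genes of the table the median was 6 and 92.3% had at least 1, while the 26 members with 100 or more UMIs had a median of 10.5 and the 10 scarcer members 5.5. Gabrb1 has 2 entries in the table, and the one with more CG is shown. A count of CG describes these letters only.

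Among AMPA receptor genes, Gria2 (GRCm39 chromosome 3, 80588757 to 80710538, minus strand) was highest in cortical excitatory neurons, at 2394 and 2380 CPM. It stood at 1313 and 1314 CPM in mixed-transmitter neurons, 736 and 714 CPM in forebrain inhibitory neurons and 629 and 598 CPM in progenitors. Within the cortical class it reached 3789 and 3820 CPM in cluster 9. The differences between these classes were many times those between the libraries within a class. After thinning to 1000 UMIs, a Gria2 UMI was seen in 85.0% and 84.4% of cortical excitatory nuclei, in 38.5% and 33.5% of progenitors and in 12.4% and 11.1% of fibroblast-like nuclei. Without thinning the same shares were 94.3% and 94.9%, 55.2% and 55.0%, and 19.4% and 31.8%. The median nucleus held 2262 and 2424 UMIs in the cortical class, 2042 and 2164 UMIs in progenitors and 2486 and 3009 UMIs in fibroblast-like nuclei.

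Gria1 and Gria4, which encode AMPA receptor subunits permeable to calcium in the absence of GluA2, were the AMPA genes with the most UMIs in forebrain inhibitory neurons. Gria1 (chromosome 11, 56902153 to 57221080, plus strand) stood there at 1132 and 934 CPM, against 228 and 278 CPM in cortical excitatory neurons and 62.9 and 64.4 CPM in progenitors. Gria4 (chromosome 9, 4417604 to 4796326, minus strand) stood at 1064 and 915 CPM, against 190 and 214 CPM in cortical excitatory neurons. Both were highest in the cluster led by Lhx6, a factor of medial eminence interneurons, at 1529 and 1274 CPM for Gria1 and 1577 and 1353 CPM for Gria4. In the other cluster of that class, with Dlx6 among its leading genes, Gria1 was at 414 and 360 CPM. Gria3 had the opposite pattern, with 209 and 225 CPM in cortical excitatory and 40.8 and 36.4 CPM in forebrain inhibitory neurons.

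The kainate receptor gene Grik2 (chromosome 10, 48970929 to 49664880, minus strand) was the receptor gene with the most UMIs in progenitors, at 1493 and 1254 CPM, and in intermediate progenitors, at 1327 and 1440 CPM. Its highest levels were in cluster 13 (2829 and 3043 CPM) and other inhibitory neurons (2056 and 1778 CPM), and it was lower in cortical excitatory neurons (870 and 784 CPM). Taken over all neuron classes, Grik2 was at 0.81-fold and 0.95-fold of its level in progenitors. A Grik2 UMI was seen in 62.0% and 55.8% of progenitors thinned to 1000 UMIs, against 18.1% and 8.33% of fibroblast-like nuclei, and in 74.1% and 75.7% against 27.8% and 27.3% without thinning. Grik3 was highest in forebrain inhibitory neurons (590 and 536 CPM) and low in progenitors (41.6 and 23.7 CPM). Grik5, which encodes a high-affinity subunit that needs a partner such as GluK2, was the most even of the kainate genes, between 109 and 145 CPM and between 115 and 149 CPM in the 8 progenitor and neuron classes.

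Delta receptors share the fold of ionotropic glutamate receptors but link synapses rather than open to glutamate. Grid1 (chromosome 14, 34541769 to 35305336, plus strand) had its highest level in cluster 13, at 804 and 786 CPM, with 450 and 408 CPM in mixed-transmitter neurons.

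For the NMDA receptor, Grin2b (chromosome 6, 135690231 to 136150548, minus strand) stood at 939 and 1007 CPM in cortical excitatory neurons, 1101 and 1053 CPM in mixed-transmitter neurons, 505 and 529 CPM in forebrain inhibitory neurons and 210 and 124 CPM in progenitors. Its highest cluster, at 1676 and 1694 CPM, was cortical excitatory cluster 4, led by Tg and Dync1i1. Grin1, the obligatory subunit, had 5 and 7 UMIs in progenitors, 2.97 and 5.18 CPM, and stood at 77.3 and 74.5 CPM in mixed-transmitter neurons. Per length Grin2b exceeded its later replacement Grin2a by 10.2-fold (9.62 to 10.9) and 8.84-fold (8.39 to 9.31). Grin2d exceeded Grin2c by 7.74-fold (4.54 to 14.4) and 7.07-fold (4.51 to 11.7) per length. Grin3a and Grin3b could not be told apart per length, with ratios of 0.77 (0.57 to 1.05) and 0.81 (0.63 to 1.05). On the opposite strand Grin3b is overlapped by Tmem259 for 2243 bases, and Grin2d by Kdelr1 for 5607 bases and Gm45441 for 4446 bases. Whether the counting used the strand is not given in the sources used here, so the UMIs of Grin3b and Grin2d, and these ratios, are uncertain. The same limit holds for other members that overlap a gene on the opposite strand.

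Of the 8 metabotropic glutamate receptor genes, Grm5, Grm7, Grm8 and Grm3 had the most UMIs. Grm5 acts through Gq, and Grm7, Grm8 and Grm3 through Gi. Grm5 stood at 789 and 863 CPM in cluster 13 and 733 and 751 CPM in other excitatory neurons, against 31.5 and 29.6 CPM in progenitors. Grm7 stood at 567 and 547 CPM in mixed-transmitter neurons and 508 and 537 CPM in other excitatory neurons, against 100 and 95.8 CPM in cortical excitatory neurons. These genes were thus neuronal and weighted towards neurons outside the cortex. Grm3 differed, as its highest level was in mural cell-like nuclei, the cells that wrap small vessels, at 673 and 649 CPM. That rests on 59 UMIs in 33 nuclei and 86 UMIs in 40 nuclei. A Grm3 UMI was seen in 42.4% and 51.4% of mural nuclei thinned to 1000 UMIs, against 7.62% and 14.8% of fibroblast-like and 2.91% and 2.79% of cortical excitatory nuclei. Without thinning these were 60.6% and 72.5%, 23.1% and 29.1%, and 6.95% and 6.68%. The median mural nucleus held 2154 and 2110 UMIs. In both libraries the mural share was therefore above that of the other classes named.

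Among GABA-A receptor genes, alpha subunits set benzodiazepine sensitivity and receptor location. Gabra2 (chromosome 5, 71114573 to 71253662, minus strand) had 3080 and 3975 UMIs. It stood at 294 and 270 CPM in other excitatory neurons, 231 and 268 CPM in cortical excitatory neurons, 110 and 115 CPM in forebrain inhibitory neurons and 83.1 and 68.9 CPM in progenitors. Gabra3, another alpha subunit gene, was highest among the 5 large classes in mixed-transmitter neurons, at 103 and 88.6 CPM, against 13.1 and 20.0 CPM in progenitors. The beta subunit gene Gabrb2 (chromosome 11, 42310493 to 42523417, plus strand) stood at 249 and 211 CPM in mixed-transmitter neurons, 94.4 and 113 CPM in cortical excitatory neurons and 14.3 and 13.3 CPM in progenitors. The gamma subunit gene Gabrg3 stood at 272 and 291 CPM in mixed-transmitter neurons, 155 and 118 CPM in forebrain inhibitory neurons and 40.4 and 43.4 CPM in cortical excitatory neurons. Each of the 4 genes was lowest in progenitors among these classes, in both libraries.

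Gabra4 and Gabrb1 had another distribution from the rest of the family. Gabrb1 stood at 200 and 167 CPM in progenitors, above its 70.0 and 76.8 CPM in cortical excitatory and 19.8 and 24.5 CPM in forebrain inhibitory neurons, and at 369 and 324 CPM in other excitatory neurons. Gabra4 stood at 36.2 and 26.7 CPM in progenitors, 35.8 and 26.2 CPM in other excitatory neurons, 6.73 and 6.21 CPM in cortical excitatory neurons and 3.60 and 1.99 CPM in forebrain inhibitory neurons. Gabra4 was the member with the largest ratio of progenitors to all other nuclei, a log2 ratio of 1.20 (0.87 to 1.52) over both libraries. The pair lies head to head on chromosome 5 of GRCm39, Gabra4 at 71721738 to 71815722 on the minus strand and Gabrb1 at 71815456 to 72319431 on the plus strand, and the gene bodies overlap by 267 bases. In the GRCm38.p6 table the first bases of the entries whose windows are printed lie 387 bases apart, at 71658308 for Gabra4 and 71657921 for Gabrb1. Given the strands, these bases are an overlap and not a gap, and each printed window lies on the partner gene's side of its start. Both were also lower in intermediate progenitors, at 6.24 and 2.92 CPM for Gabra4 and 29.1 and 81.6 CPM for Gabrb1.

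Many GABA-A genes lie in clusters, and neighbours can differ in level. On chromosome X Gabra3 had 734 and 938 UMIs, and its neighbours Gabre and Gabrq had 21 and 15, and 9 and 45. Gabra5 (chromosome 7, 57055164 to 57240831, minus strand) overlaps another gene on the opposite strand, so the assignment of its UMIs is uncertain too.

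GABA-B and glycine receptors gave fewer UMIs. Gabbr1 stood at 80.2 and 76.3 CPM in progenitors and 135 and 138 CPM in other excitatory neurons. Gabbr2, whose product carries the receptor's signal to the G protein, stood at 8.31 and 14.1 CPM in progenitors and 178 and 180 CPM in other excitatory neurons. Of these 2 obligate partners, Gabbr2 was thus 14.1-fold and 8.71-fold higher in neurons than in progenitors, and Gabbr1 1.49-fold and 1.72-fold. Of the glycine receptor genes, Glra2, the fetal alpha subunit, exceeded the adult Glra1 per length by 14.9-fold (11.3 to 20.2) and 5.65-fold (4.78 to 6.72). Glra2 stood at 115 and 111 CPM in cortical excitatory and 167 and 158 CPM in other excitatory neurons, against 7.72 and 8.89 CPM in progenitors. Glra3 was the member with the largest ratio of other excitatory neurons to all other nuclei, a log2 ratio of 2.08, at 26.2 and 16.1 CPM.

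**Figure D2:**
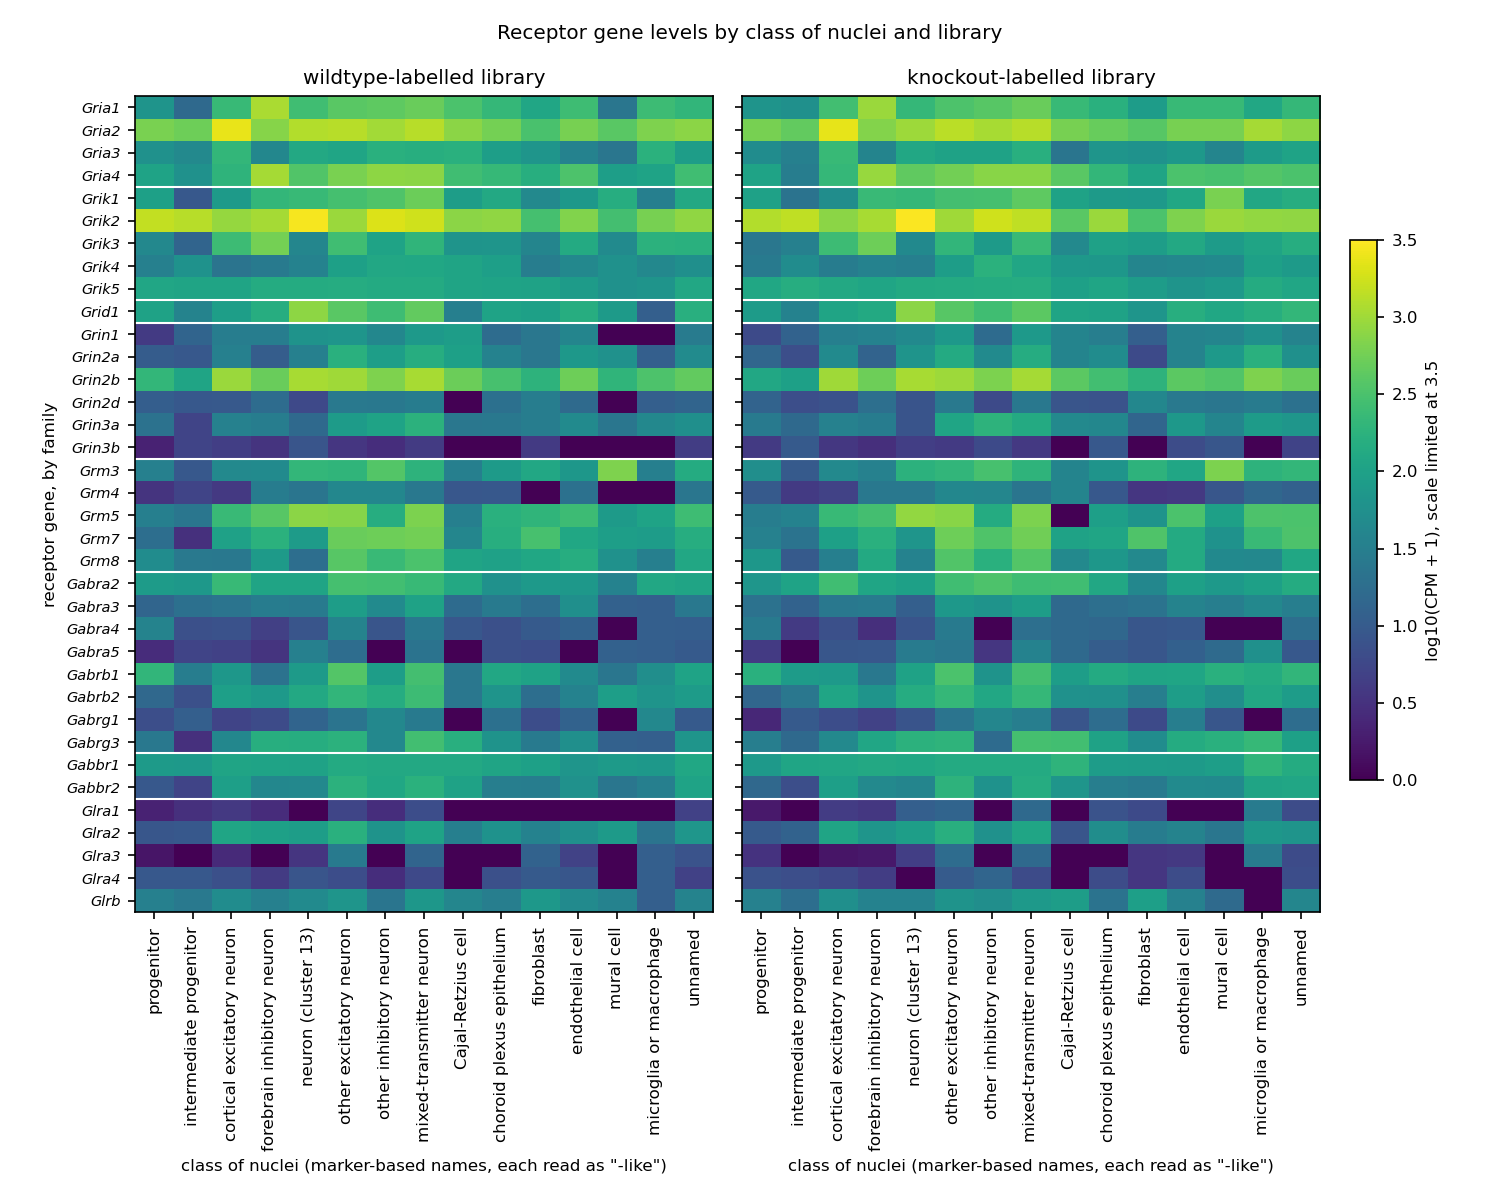
Level of 36 receptor genes with at least 100 UMIs (rows, by family) in each class of nuclei (columns), as log10(CPM + 1), with the wildtype-labelled library on the left and the knockout-labelled on the right. Gria2 is brightest in cortical excitatory neurons (2394 and 2380 CPM), Grik2 in cluster 13 (2829 and 3043 CPM) and Grm3 in mural cells (673 and 649 CPM).

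Neurons and progenitors were compared within each library over genes with at least 100 UMIs in the classes. A gene was counted when it was at least 2-fold higher or lower in both libraries. The neuron side pooled every class with neuron in its name, whereas the progenitor side was a single cluster. Unnamed clusters with radial glia or dividing markers were on neither side. Type of neuron and maturation therefore cannot be told apart in these folds. The minimum was set on the sum of both sides, and the neuron side held more UMIs. A scarce gene could therefore pass through neurons alone, which favours genes higher in neurons, and the same holds for all genes. Over progenitors, 31 of 40 receptor genes were higher in neurons, where 12.2% of all 14221 genes were. None was lower, where 10.4% of all genes were, and the median log2 ratios were 1.98 and 1.95 against -0.16 and -0.16 for all genes. Large differences were those of Grm7 (17.7-fold and 10.7-fold), Grin1 (16.2-fold and 10.7-fold), Glra2 (15.1-fold and 12.9-fold), Grm5 (14.4-fold and 17.1-fold) and Gabrb2 (10.3-fold and 12.4-fold). Gria2 differed by 2.57-fold and 2.53-fold. The 9 genes not counted were Grik2 (0.81-fold and 0.95-fold), Grik5, Grik4, Gabrb1 (0.83-fold and 1.18-fold), Gabra4 (0.43-fold and 0.52-fold), Gabbr1, Glrb, Glra4 and Grin2d. Doublet scores were among the highest 8% of their library in 9.80% of progenitor nuclei. With those nuclei removed from all classes the same 31 genes were higher, and Gabra4 was lower.

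Intermediate progenitors, marked by Eomes and Neurog2, were below progenitors for 6 of 21 receptor genes, where 8.52% of all 7534 genes were lower. None was higher, where 2.55% of all genes were. Here too the minimum was on the sum of both sides, and progenitors held more UMIs, so scarce genes could pass through progenitors alone. Among those lower, Grik1 was at 0.086-fold and 0.207-fold with 4 and 7 UMIs, and Grid1 at 0.344-fold and 0.426-fold. Gabrb1 was at 0.146-fold and 0.490-fold, and Grm3 had 4 and 3 UMIs, log2 ratios of -1.95 (-3.87 to -0.51) and -2.59 (-4.90 to -0.98). Gabra4 had 3 UMIs and 1 UMI in intermediate progenitors, log2 ratios of -2.54 (-4.85 to -0.92) and -3.19 (-8.54 to -0.62). With doublets removed the count was 4, without Gabra4 and Gabrb1.

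Forebrain inhibitory and cortical excitatory neurons differed in which receptor genes they carried more than in the sum. Of 34 receptor genes, 7 were higher in the inhibitory class in both libraries, where 2.54% of all 10697 genes were: Grm4 (10.4-fold and 6.38-fold), Gria4 (5.61-fold and 4.28-fold), Gria1 (4.97-fold and 3.36-fold), Gabrg3 (3.84-fold and 2.71-fold), Grm8 (3.32-fold and 4.19-fold), Grik1 (2.59-fold and 4.65-fold) and Grik3 (2.39-fold and 2.16-fold). Another 7 were lower, where 5.37% of all genes were, among them Gria3 (0.196-fold and 0.162-fold), Gabrb1, Grin2a, Gria2 (0.308-fold and 0.300-fold), Gabbr2 and Gabra2. At the coarser and finer clustering resolutions, 0.5 and 2 in place of 1, Grik3 was no longer among those higher and Gabrb1 no longer among those lower, and at resolution 2 Gabbr2 and Gabra2 were not either. Grm4, Gria4, Gria1, Gabrg3, Grm8 and Grik1 were higher, and Gria3, Gria2 and Grin2a lower, at both. The AMPA genes fell on opposite sides, Gria1 and Gria4 with the inhibitory and Gria2 and Gria3 with the excitatory class.

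Other excitatory neurons were above cortical excitatory neurons for 23 of 38 receptor genes, where 5.85% of all 11341 genes were, and below for none, where 3.16% were. Mixed-transmitter neurons were above them for 24 of 39, where 7.36% of all 11926 genes were, and below for none, where 2.98% were. Grm8 was 16.1-fold and 11.2-fold higher in other excitatory and 13.4-fold and 11.4-fold higher in mixed-transmitter neurons. Grm7 was 5.07-fold and 5.61-fold higher in other excitatory neurons. Gria2 ran the other way, at 0.549-fold and 0.569-fold and at 0.548-fold and 0.552-fold, short of the 2-fold limit.

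The chloride transporters were read beside the receptors. Slc12a2 stood at 98.0 and 104 CPM in progenitors, 63.5 and 62.1 CPM in cortical excitatory neurons and 54.9 and 62.8 CPM in mixed-transmitter neurons. Slc12a5 stood at 13.7 and 14.1 CPM in progenitors, 18.1 and 19.8 CPM in cortical excitatory neurons, 79.4 and 87.8 CPM in other excitatory neurons and 111 and 104 CPM in mixed-transmitter neurons. Among the 5 large classes the exporter was therefore highest in those with the most receptor UMIs, while the importer was not. By UMIs over all nuclei, Slc12a2 over Slc12a5 was 1.63 (1.49 to 1.79) and 1.27 (1.17 to 1.37). Per length the same ratio was 0.91 (0.83 to 1.00) and 0.71 (0.65 to 0.77), so it fell below 1 only after division by length.

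Between the libraries, the comparison of the study, 35 of the 41 receptor genes had a higher CPM in the knockout-labelled library. The median log2 ratio, knockout-labelled over wildtype-labelled, was 0.16, against -0.01 for all 15528 genes tested, whose 5th and 95th percentiles were -0.31 and 0.42. A gene is called higher or lower here past a log2 ratio of 0.32 either way, where the higher library is 25% above the lower. By that limit 9 of 41 receptor genes were higher, where 8.02% of all genes were, and none was lower, where 4.6% were. At 1.5-fold 3 genes were higher, where 2.12% of all genes were, Gabra5 and Glra1 among them, and none was lower, where 0.605% were.

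Glra1 (chromosome 11, 55405064 to 55499422, minus strand) had 50 and 150 UMIs, 2.91 and 7.55 CPM, a log2 ratio of 1.38 (0.91 to 1.87). Gabra5 had 149 and 323 UMIs, 8.66 and 16.2 CPM, a log2 ratio of 0.91 (0.62 to 1.20). Also past the limit were Gabrg3 (0.46, 0.37 to 0.54), Gabrg1 (0.41, 0.15 to 0.66), Grm7 (0.40, 0.34 to 0.46), Grm8 (0.36, 0.28 to 0.43), Grm3 (0.35, 0.27 to 0.43) and Grin3a (0.33, 0.22 to 0.45). Glra1 overlaps a long noncoding gene, Gm12236, on the opposite strand by 13186 bases, so its UMIs are uncertain in their assignment. The 5 lowest ratios were those of Gabra4 (-0.11, -0.35 to 0.13), Gria2 (-0.09, -0.11 to -0.06), Grik3 (-0.07, -0.14 to -0.01), Grik2 (-0.07, -0.10 to -0.04) and Glra2 (-0.02, -0.12 to 0.07). Among the scarce genes, Gabrq (9 and 45 UMIs) stood at 2.11 (1.06 to 3.33) in log2, and it is named after its values were seen.

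These ratios moved with the makeup of the libraries. When both libraries were given the same shares of classes, 2 of 41 genes were higher by that limit, Glra1 at 1.14 and Gabra5 at 0.63, and 24 were above 0, with a median log2 ratio of 0.02. Gabrg3 was then at 0.16, Gabrg1 at 0.16, Grm3 at 0.14, Grm7 at 0.12, Grm8 at 0.06 and Grin3a at 0.04. With the same shares of the 23 clusters the median was 0.001, and Glra1 and Gabra5 were again the 2 genes past the limit, at 1.07 and 0.59. Leaving out the mixed-transmitter nuclei left 6 of 40 genes higher and put Glra3 past the limit as lower. In bulk sums such as these, more nuclei of a type and a higher level within them cannot be told apart. The values with equal shares rest on the rebuilt classes and clusters, and the class shares take all unnamed clusters as a single class. The share of all genes past the limit with equal shares, or without mixed-transmitter nuclei, is not given here. These counts therefore describe the receptor genes only. The cause of the ratios was not tested.

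**Figure D3:**
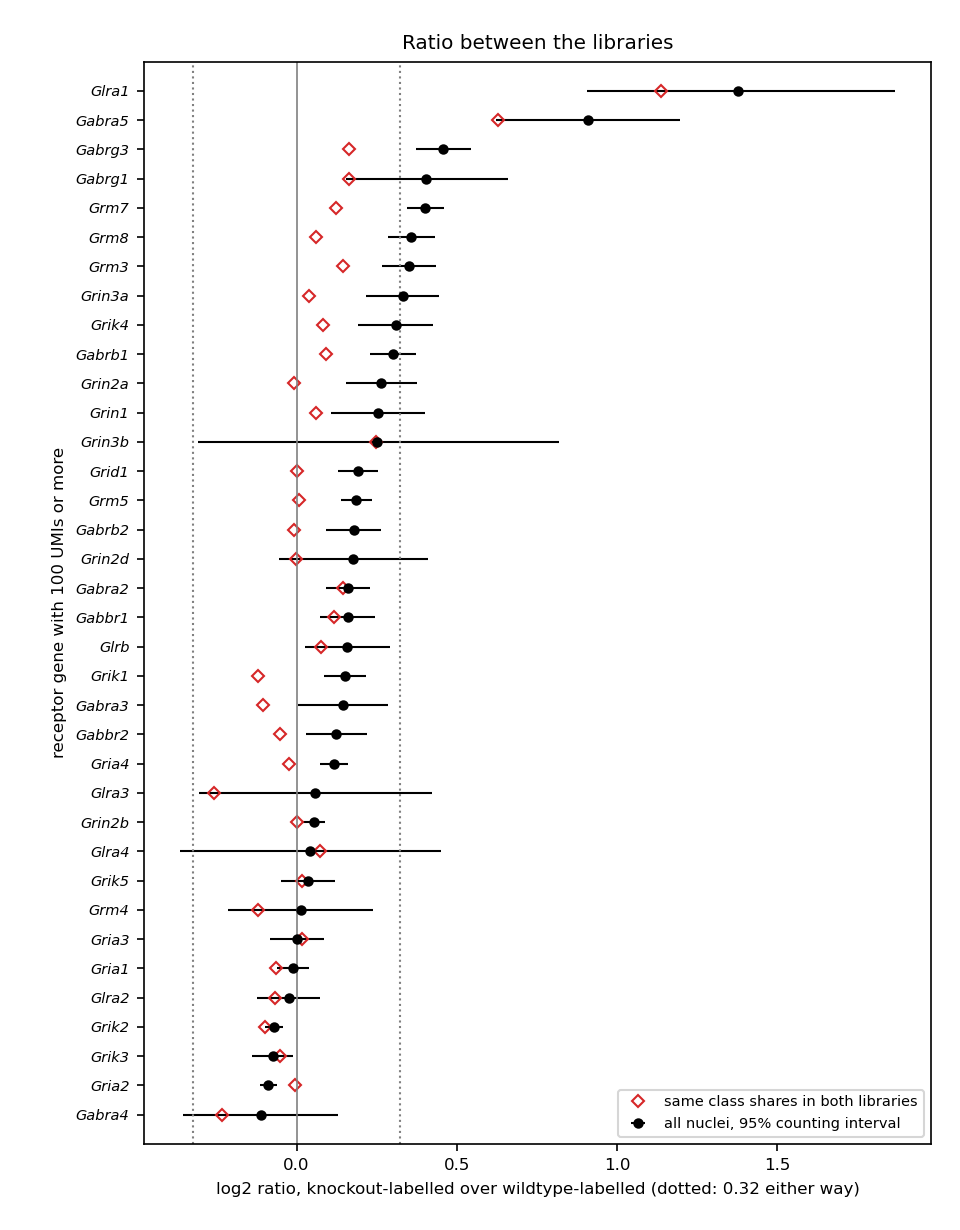
Log2 ratio of CPM, knockout-labelled over wildtype-labelled (horizontal axis), for 36 receptor genes with at least 100 UMIs, with black points and 95% counting intervals for all nuclei, red diamonds for the same class shares in both libraries, and dotted lines at 0.32 either way. The black points of 8 genes lie beyond the upper line, and the diamonds of 2, Glra1 and Gabra5, do.

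Glra1 and Gabra5 were higher in the same neuron classes. Glra1 had 13 UMIs (5.71 CPM) and 70 UMIs (14.9 CPM) in mixed-transmitter neurons, and 10 UMIs (4.36 CPM) and 33 UMIs (12.3 CPM) in other excitatory neurons. Gabra5 had 47 UMIs (20.6 CPM) and 160 UMIs (34.2 CPM) in mixed-transmitter neurons, a log2 ratio of 0.73 (0.25 to 1.23). In other excitatory neurons Gabra5, from 38 and 62 UMIs, was at 0.48 in log2 (-0.12 to 1.11), and the interval holds 0.

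Within the 5 classes of at least 200 nuclei per library, most receptor genes with at least 100 UMIs lay within a log2 ratio of 0.32 either way. In progenitors 3 of 18 were higher (7.71% of all genes) and 2 lower (8.46%). Among those higher, Grm3, from 54 and 71 UMIs, was at 0.71 (0.18 to 1.252) and Grm8 at 0.50 (0.06 to 0.94). Grin2b was lower in knockout-labelled progenitors, at 353 and 168 UMIs or 210 and 124 CPM, which is -0.75 in log2 (-1.03 to -0.48). Grik3, with 70 and 32 UMIs, was at -0.81 (-1.46 to -0.19), and at -0.12 (-1.12 to 0.85) with doublets removed. Grin2b was at -0.85 with doublets removed and at -0.70 and -0.50 at the other clustering resolutions. Neurod6 stood at 115 and 91.8 CPM in progenitors, and the part of free RNA in the Grin2b ratio was not tested.

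In cortical excitatory neurons 5 of 32 receptor genes were higher (5.78% of all genes) and 1 lower (5.76%). Among those higher, Grin2a was at 0.53 (0.19 to 0.87), Grm8 at 0.42 (0.02 to 0.82) and Grik4 at 0.40 (-0.03 to 0.83). Grik1 was lower, from 347 and 173 UMIs, at -0.65 (-0.93 to -0.39). At a finer clustering resolution of 2, however, Grik1 in this class was at 0.54 and Grin2a at -0.06, and at a coarser resolution of 0.5 Grm8 was at -0.09, so the direction of these 3 depends on how the class is drawn.

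In forebrain inhibitory neurons 1 of 25 was higher (8.66% of all genes) and 5 lower (7.67%). Grm8 was higher, from 132 and 202 UMIs, at 0.76 (0.43 to 1.08). Among those lower were Glra2 (-0.54, -0.91 to -0.17), Grm5 (-0.46, -0.64 to -0.29), Grm3 (-0.43, -0.98 to 0.10) and Gabrg3 (-0.39, -0.68 to -0.11). The share of these nuclei in the Lhx6-led cluster was 579 of 918 and 457 of 753. In forebrain inhibitory neurons Grm8 was between 0.74 and 0.88 with doublets removed and at the other 2 resolutions. In progenitors it was at 0.29 (-0.22 to 0.80) with doublets removed, and in the cortical class its direction changed with the resolution.

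In other excitatory neurons 2 of 38 were higher (7.57% of all genes) and 3 lower (6.83%), namely Grin3a at 0.45 (0.19 to 0.72) and Gabra5, and Glra3 at -0.70 (-1.30 to -0.12), Gabra4 at -0.45 (-0.93 to 0.03) and Grik3 at -0.41 (-0.58 to -0.24). Grin3a was at -0.04 and 0.03 there at resolutions 0.5 and 2. In mixed-transmitter neurons 1 of 37 was higher (7.28%), Gabra5, and 4 lower (6.62%), among them Gabra4 at -0.43 (-0.94 to 0.09) and Grin3a at -0.38 (-0.56 to -0.20). The median log2 ratios in the 5 classes, in the order given, were -0.03, 0.10, -0.05, -0.04 and -0.02, against medians between -0.01 and 0.00 for all genes. Within classes the receptor genes as a group thus lay close to all genes, above them in the cortical class and slightly below them in the others.

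**Figure D4:**
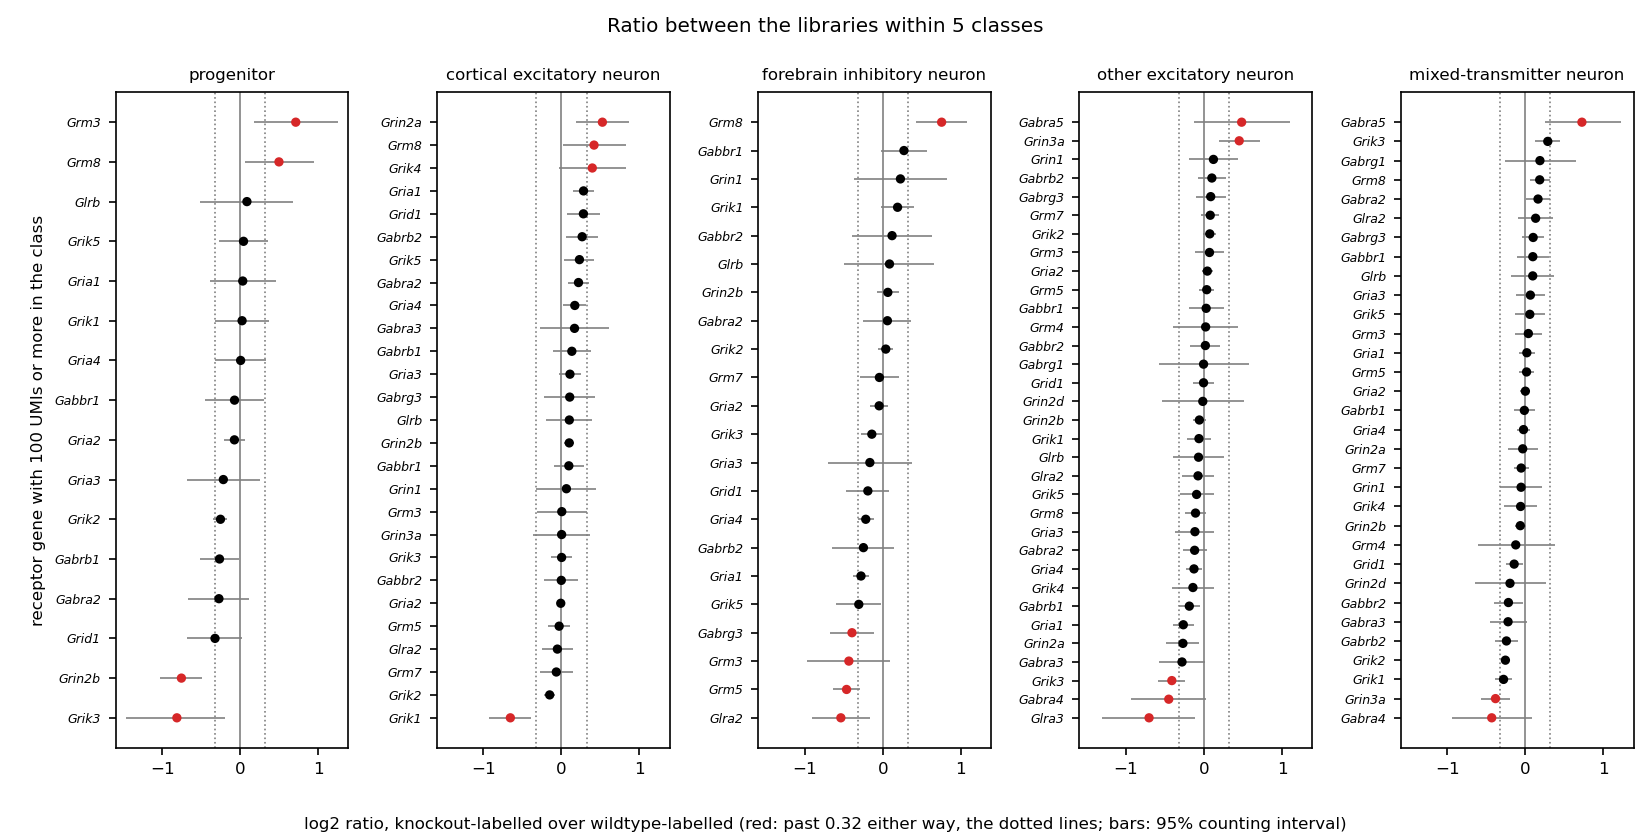
Log2 ratio of CPM, knockout-labelled over wildtype-labelled (horizontal axis), for receptor genes with at least 100 UMIs in each of 5 classes, with 95% counting intervals, dotted lines at 0.32 either way and genes beyond them in red. Most points lie between the lines, and Grm8 stands apart in forebrain inhibitory neurons at 0.76.

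Of 52 further genes of receptor complexes, a list that holds auxiliary subunits, scaffolds, GABA receptor partners and the 2 chloride transporters, 50 were tested between the libraries. Past the same limit, 4 were higher over all nuclei, where 8.02% of all genes were, and none was lower, where 4.6% were, with a median log2 ratio of 0.02. The share higher was thus near that of all genes, and the 4 are given as values. Kctd16, at 1045 and 2148 UMIs, had a ratio of 0.83 (0.72 to 0.94) and Kctd8 at 0.40 (0.30 to 0.50); both encode auxiliary subunits of the GABA-B receptor. Gabarapl2, of the GABARAP family, was at 0.57 (0.49 to 0.66), and Homer2, a scaffold for group I metabotropic receptors, at 0.38 (0.21 to 0.56). Kctd16 is also among the 10 leading genes of the mixed-transmitter cluster, whose share was 9.12% and 16.4%, and the part of that share in its ratio was not tested.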

How the data were processed

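The authors deposited raw UMI counts per gene and barcode for 1 library of each genotype, from nuclei of frozen brain captured with the 10x Chromium 3′ kit v3.1, per the labels. The submitters' processing notes name Cell Ranger 3.0.1, STAR and GRCm39, whereas the file headers name Cell Ranger 6.1.1. The annotation, intron counting and strand setting are not given in the sources used here. No barcode held under 500 UMIs. Barcodes with at least 500 genes and at most 5% mitochondrial UMIs were kept.

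Nuclei of both libraries were clustered together in scanpy 1.11.5, without the receptor genes, the receptor complex genes, Cav1, Xist, Tsix, mitochondrial genes and 4 Y-linked genes. The settings were 10000 UMIs per nucleus, 2000 variable genes ranked across both libraries, 30 principal components, 15 neighbours and Leiden resolution 1. The 23 clusters were named from marker lists: 3 or more markers at 2-fold, and at 1.5-fold within each library, gave a name, which was dropped where another class had more of its markers among the 10 leading genes. These thresholds were set after the clusters were seen, and 4 clusters stayed unnamed. Scrublet's own threshold marked no doublet, so doublets were kept, and the 8% of nuclei with the highest scores were removed as an alternative.

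UMIs were summed per library and class. Log2 ratios of CPM carry exact conditional binomial 95% intervals, and shares exact binomial ones. Genes with at least 100 UMIs over both libraries were compared. In contrasts of classes a sum of 0 was set to 3 UMIs. GENCODE M39 on GRCm39 gave positions and lengths, with 54749 features (98.8%) and all 52 members matched. The library ratio and its counting interval were checked on simulated counts with known folds, which held no spread between nuclei or animals. The other steps were not checked in this way.

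The members and lists were chosen with earlier results of these data known. Named with values were the 12 members with the most UMIs, the 5 highest and 5 lowest ratios, the leading members per length and by ratio in classes of 200 or more nuclei per library, members with libraries over 25% apart, and pairs that exchange in development. Of these, 5 members with at least 100 UMIs are not reported here by name or plotted, and counts over members include them.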

Additional observations from a re-analysis of the deposited data

Results flagged for a closer look

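The ratio between the libraries ran in opposite directions in different classes for Grin3a, which encodes an NMDA receptor subunit that lowers calcium entry. Its log2 ratio, knockout-labelled over wildtype-labelled, was 0.45 (0.19 to 0.72) in other excitatory neuron-like nuclei and -0.38 (-0.56 to -0.20) in mixed-transmitter neuron-like nuclei. In the former class Grin3a was at -0.04 and 0.03 at resolutions 0.5 and 2. With 1 library for each genotype the difference was not tested, and the intervals cover counting error only.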

How the results depend on the processing

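No paired analysis was possible because each genotype has 1 library. The 9 receptor genes higher by over 25% became 2 with the same class shares and 2 with the same cluster shares, and 3 at 1.5-fold. The shares of all genes beside these counts are given above for the main setting and for 1.5-fold only. The count of lower genes, 0, became 1 without mixed-transmitter nuclei and 3 (Grm2, Gabrr2 and Gabre) when 20 UMIs sufficed. In log2 the median of 0.16 became 0.018 with the same class shares and 0.0010 with the same cluster shares. Leaving out mixed-transmitter or unnamed nuclei and using cluster shares were chosen after seeing the data.

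Direction turned for Grm8 in cortical excitatory nuclei (-0.087 at resolution 0.5), Grik1 and Grin2a in the same class (0.54 and -0.059 at resolution 2) and Grin3a in other excitatory nuclei (-0.042 at resolution 0.5). The summed receptor level over both libraries was 7428 CPM in cortical excitatory nuclei, and 6778 and 6773 CPM at resolutions 0.5 and 2. In other excitatory nuclei it was 11144 CPM, and 11386 CPM with doublets removed, 9357 CPM at resolution 0.5 and 10561 CPM at resolution 2. In mixed-transmitter nuclei it was 12872 CPM, and 12120 and 13544 CPM at resolutions 0.5 and 2. The cause was not tested.

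For neurons over progenitors the count of lower genes, 0, became 1 (Gabra4) with doublets removed and at resolutions 0.5 and 2, and 1 (Gabrd) with at least 20 UMIs. For forebrain inhibitory over cortical excitatory nuclei the 7 lower genes became 3 at resolution 2, and for other excitatory over cortical excitatory nuclei the 0 became 1 (Gria3) at resolutions 0.5 and 2. For intermediate progenitors over progenitors the count of higher genes, 0, became 1 (Grin1) with at least 20 UMIs. Resolution 0.5 gave no intermediate progenitor class, so that comparison could not be made there. Of 180 class levels of the 12 members with the most UMIs under the class alternatives, 11 moved past 1.5-fold, with a range from 0.463-fold to 1.62-fold; in progenitors with doublets removed these were Grm5, Gria1 and Grik3, to 17.9, 31.9 and 15.5 CPM. At a thinning depth of 2000 UMIs, 64 shares of nuclei moved and 8 did not. All 41 ratios over all nuclei moved less than their interval under gene minimums of 200 and 1000, a mitochondrial limit of 1% and scaling by the median of gene ratios.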
